A study of Homo sapiens with 16 samples.

Results

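The clustered protocadherins are cell adhesion proteins of the cadherin superfamily, encoded by 3 neighbouring gene clusters, alpha, beta and gamma, on human chromosome 5. Entries were taken by symbol (PCDHA, PCDHB, PCDHGA, PCDHGB and PCDHGC followed by a number, and the alpha C-type PCDHAC1 and PCDHAC2), which gave 53 of the 19077 entries of the count table. Of these, 15 belong to the alpha cluster, 16 to the beta cluster and 22 to the gamma cluster. All 53 accessions were found in the RefSeq gene table, each under an unchanged symbol and on chromosome 5.

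Each isoform has its own large first exon, with its own promoter, that encodes the extracellular cadherin repeats, the transmembrane segment and part of the cytoplasmic tail. Alpha isoforms are spliced to constant exons shared by the alpha cluster, and gamma isoforms to constant exons shared by the gamma cluster, whereas beta genes are single exons without a shared 3' part. Neurons each choose a subset of the promoters, with CTCF and cohesin looping chosen promoters to enhancers, and the resulting combination of proteins binds homophilically between membranes, which serves self-recognition and self-avoidance of neurites. The C-type isoforms at the 3' end of the alpha and gamma clusters are transcribed more evenly than the others in neurons.

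The RNA came from HEK 293, a human embryonic kidney-derived cell line, and was recovered with the RISC trap. That method uses a dominant-negative GW182 fragment to hold a transfected miRNA, Argonaute and the target mRNA together for immunoprecipitation. There were 16 libraries: 2 for each of 6 miRNAs (mir1301-3p, mir3613-5p, mir1180-3p, mir1271-5p, mir550-3p and mir1260a-5p), 3 titled as Illumina for mir124-3p and 1 titled as Solid for mir124-3p. A library without a transfected miRNA is not among them, so each of the 6 miRNAs was compared with the average of the other 5. The sequencer of these 12 libraries is not in the labels. The descriptions of both mir550-3p libraries and of mir1301-3p replicate 2 carry the letters bio. Those of mir1180-3p, mir1260a-5p, mir1271-5p and mir3613-5p read Sample and a number, and those of the Illumina libraries L and a number. None of these names states whether replicates were separate cultures. The p-values measure the spread between libraries. Recovered RNA reflects both the amount of a transcript in the cells and its association with RISC, which these data cannot tell apart.

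Which mRNAs each miRNA recovered was the question of the design. The miRNAs are shown by the mature sequences of RefSeq (GRCh38.p14), since the seed is the stretch by which a miRNA mainly pairs with a target; bases 2 to 8, the seed, are in capitals. RefSeq gives hsa-miR-1260a without the arm that the label carries, and mir550-3p was matched to hsa-miR-550a-3p because the sample descriptions say 550a.
hsa-miR-1180-3p: uUUCCGGCucgcgugggugugu
hsa-miR-1260a: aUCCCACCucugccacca
hsa-miR-1271-5p: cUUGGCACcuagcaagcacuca
hsa-miR-1301-3p: uUGCAGCUgccugggagugacuuc
hsa-miR-3613-5p: uGUUGUACuuuuuuuuuuguuc
hsa-miR-550a-3p: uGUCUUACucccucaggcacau
All 6 seeds differ, so no shared seed joins any of these groups.

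Many, but not all, of the first exon promoters carry a conserved element that holds the letters CGCT and that is bound by CTCF at many isoforms. RefSeq promoter sequences (250 bases before to 50 after each start, GRCh38.p14) were found for 47 of the 53 members. CGCT stood on either strand in 46 of the 47, against 69.9% of all 34943 promoters. The most frequent run of 8 bases containing CGCT was then taken in each cluster, a choice made from these same promoters. It was ATGTCGCT in 9 of 13 alpha promoters and 0.232% of all promoters, GTGGCGCT in 13 of 14 beta promoters and 1.14% of all, and GCCGCTGT in 11 of 20 gamma promoters and 1.63% of all, searched on both strands. The 3 runs hold CGCT because they were chosen to, and they are 3 different sequences. No run was found in a promoter of either other cluster. Whether a run is the conserved element in any 1 promoter was not tested, and a run marked below is a match of letters only. The promoters of the members on which the results below turn, and that hold the run of their cluster, are shown with the run in capitals.
PCDHA12, chr5:140875240-140875279, plus strand: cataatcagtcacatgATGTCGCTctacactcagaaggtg
PCDHA8, chr5:140841126-140841165, plus strand: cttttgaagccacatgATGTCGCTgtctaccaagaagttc
PCDHB14, chr5:141223259-141223298, plus strand: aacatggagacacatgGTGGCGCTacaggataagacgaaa
PCDHB7, chr5:141172562-141172601, plus strand: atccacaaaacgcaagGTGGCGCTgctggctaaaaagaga
PCDHGA8, chr5:141392566-141392605, plus strand: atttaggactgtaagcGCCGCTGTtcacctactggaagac
PCDHGC3, chr5:141475878-141475917, plus strand: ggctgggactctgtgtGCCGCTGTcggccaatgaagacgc
PCDHGC4, chr5:141484950-141484989, plus strand: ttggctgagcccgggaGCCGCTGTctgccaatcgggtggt
Over all promoters that hold it, the run starts 42 to 85 bases before the annotated start in the alpha, 1 to 83 in the beta and 42 to 97 in the gamma cluster.

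Libraries held 7612758 to 26527365 counts, and the 2 mir1301-3p libraries, with 7612758 and 8533543, were among the 3 shallowest. A limit of 3 counts was set for a count of 0. It corresponded to 0.138 to 0.346 CPM, counts scaled to library size (CPM) with the trimmed mean of M values over all 16 libraries. CPM are not divided by length, so levels are compared here between libraries and not between genes. Replicates differed by more than counting noise in every group, by a chi-square per degree of freedom of 7.58 or more over genes. The marker list for HEK 293, with PAX2, LHX1 and the neurofilament genes among its 11 entries, summed to 1334 and 1680 CPM in mir1301-3p libraries and 1593 to 2517 CPM in the other 10 libraries of the 6 miRNAs.

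All 53 members were recovered at low levels, and the counts showed first how reads were shared. In the Illumina libraries of mir124-3p, all 15 alpha entries had exactly the same count in each library, 0, 3 and 3 in replicates 1, 2 and 3. All 22 gamma entries likewise had the same count, 50, 26 and 52. In those libraries no read told one alpha or gamma isoform from another, and the count of an entry is the count of its whole cluster. The 16 beta entries, which share no exon, took 6, 3 and 7 different counts there, between 0 and 15.

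**Figure D1:**
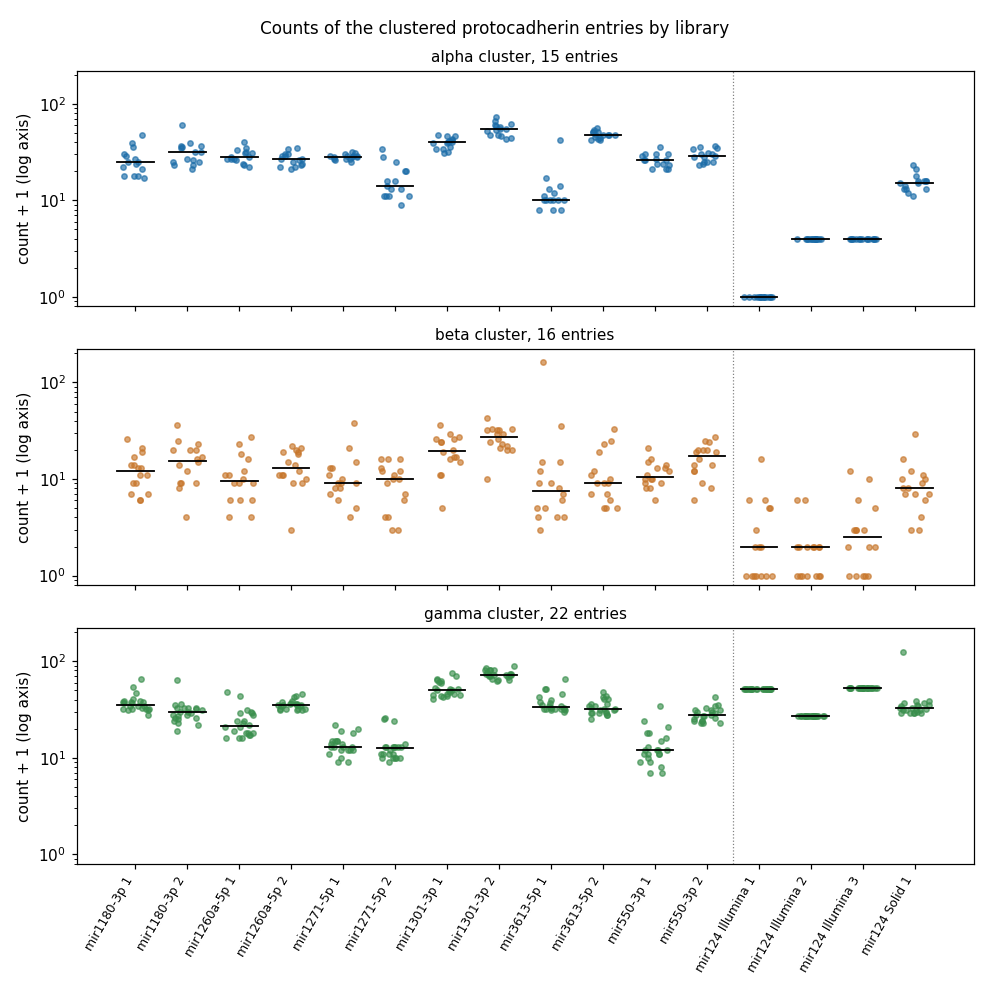
Counts of the 15 alpha, 16 beta and 22 gamma entries in each of the 16 libraries, as count + 1 on a log axis, with 1 point to an entry and a black line at the median. Alpha entries and gamma entries fall on 1 value in each mir124 Illumina library and spread in the other 13 libraries, and single beta and gamma points stand far above the rest in mir3613-5p replicate 1 and the mir124 Solid library.

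In the other 13 libraries the entries of a cluster differed, over a common base. The alpha entries ran from 16 to 47 counts in mir1180-3p replicate 1 and from 20 to 59 in replicate 2. In mir1271-5p they ran from 24 to 31 and from 8 to 33, and in mir3613-5p from 7 to 41 and from 41 to 55. The lowest entry of a cluster in a library is the most that reads of the constant exons can have added to every entry, and the count above it is called the own count here. Own counts made up 12.2% to 49.4% of the alpha counts and 13.4% to 52.7% of the gamma counts in the 13 libraries, and 0 in the Illumina libraries with any count. The entries of a cluster are therefore no independent measurements, and a count of called alpha or gamma entries largely repeats 1 value.

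Among the alpha entries, PCDHA11 had the most own counts over the 12 libraries of the 6 miRNAs, 174 of 445 counts. The C-type PCDHAC1 and PCDHAC2 followed with 142 of 413 and 138 of 409. PCDHA8, PCDHA7 and PCDHA6 had the fewest, 14 of 285, 16 of 287 and 21 of 292. The 9 entries with the alpha run in their promoter had 14 to 130 own counts, with a median of 84, and the 4 whose promoter was read and lacks it had 79 to 174, so that the ranges overlapped. The own counts of PCDHA11 were highest in the mir1180-3p libraries, at 31 and 39.

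Among the gamma entries, PCDHGA8 led with 193 of 481 counts, then the C-type PCDHGC4 with 176 of 464, PCDHGB2 with 159 of 447 and the C-type PCDHGC3 with 156 of 444. The last C-type gene, PCDHGC5, had 78 of 366. PCDHGB5 had the fewest, 31 of 319. Single libraries stood out at single entries: PCDHGA2 had 45 own counts in mir1180-3p replicate 2, PCDHGB2 38 in mir1180-3p replicate 1, and PCDHGC4 32 in mir1260a-5p replicate 1. C-type and other isoforms were thus both among the entries with the most reads of their own.

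**Figure D2:**
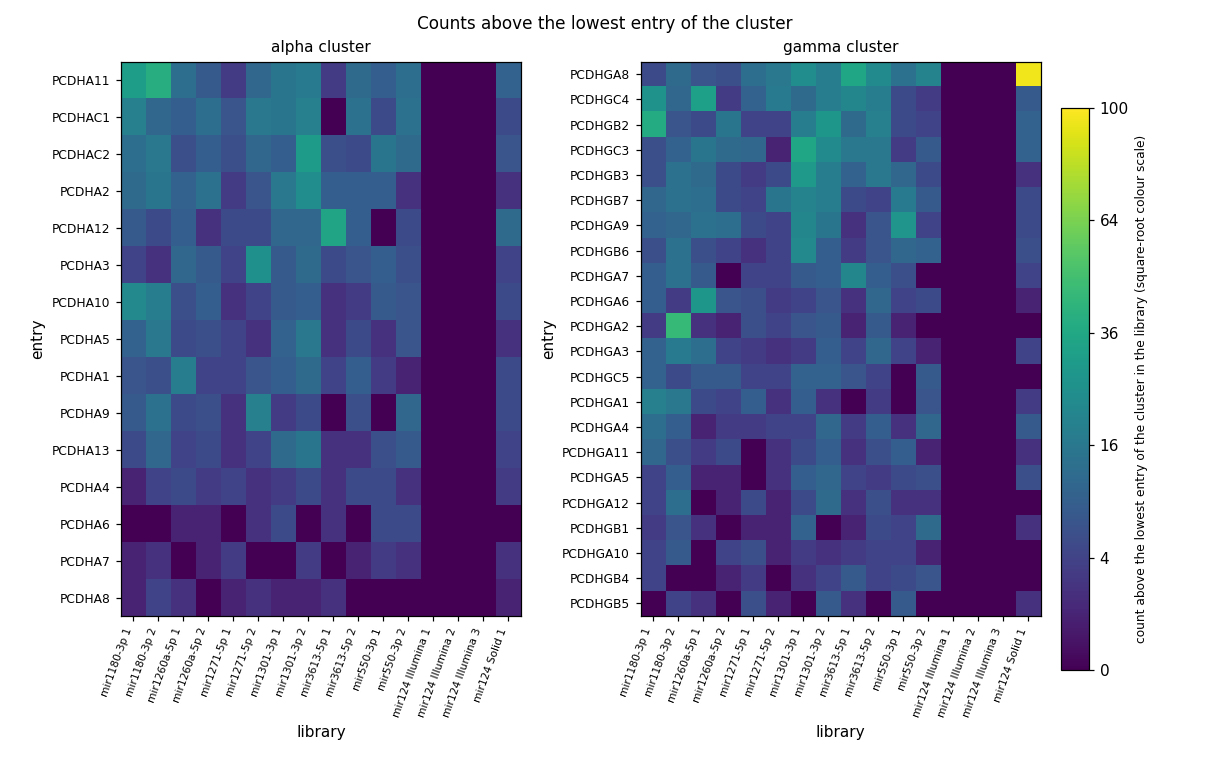
Counts above the lowest entry of the cluster, for 15 alpha entries (left panel) and 22 gamma entries (right panel) in 16 libraries, coloured on a square-root scale and ordered by their sum over the 12 libraries of the 6 miRNAs. The Illumina columns are at 0 throughout, and the brightest cell is PCDHGA8 in the mir124 Solid library with 96.

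Clustered protocadherin RNA was highest with mir1301-3p. In that comparison 29 of 52 members tested rose and 0 fell, where 11.5% of all 17658 genes tested rose. All 22 gamma entries and 7 of 15 beta entries rose; among the 15 alpha entries 0 passed the test and 10 had an unadjusted p under 0.05. The log2 fold change was above 0 for all 52, with medians of 1.08 in the alpha, 1.34 in the beta and 1.64 in the gamma cluster, against -0.02 over all genes. Genes of similar level were high as well. Over all genes averaging 1 to 5 CPM in the 12 libraries, where 47 members lie, the median was 0.96. Under 1 CPM, with 5 members, it was 1.32. Under upper-quartile scaling 43 members were called and the median of all genes moved by 0.40 on the log2 scale. Relative to that of all genes, the members' median was 1.40 under either scaling. Calls come from edgeR quasi-likelihood tests, with p-values adjusted over all genes by the Benjamini-Hochberg method and a threshold of 0.05.

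PCDHGC3, a C-type gamma isoform, had 75 and 84 counts in the mir1301-3p libraries. In the other 10 libraries its lowest, median and highest counts were 9, 30 and 45. That is 7.70 and 7.52 CPM with mir1301-3p, against 0.663, 2.52 and 3.30 CPM as the lowest, median and highest level elsewhere. The groups did not overlap, and the log2 fold change was 1.88 ± 0.38 (SE, adjusted p = 0.0105, edgeR).

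PCDHGB3, of the gamma B subfamily, had 7.09 and 7.07 CPM with mir1301-3p, against 0.666, 2.37 and 3.61 CPM as lowest, median and highest elsewhere, with a log2 fold change of 1.80 ± 0.37 (SE, edgeR adjusted p = 0.0113). PCDHGC3 and PCDHGB3 also kept a call when the lowest count of the cluster was taken from every alpha and gamma entry, an alternative chosen after seeing the data. Their log2 fold changes were then 1.99 and 1.77, with edgeR adjusted p of 0.0167 and 0.0318. Over all members that alternative left 12 calls among 43 tested, of which 10 were among the 29. Of the 22 gamma calls 4 were left and 5 could not be tested on own counts, and of the 7 beta calls, whose counts are not subtracted, 6 were left. PCDHGA6 is an entry whose change lay in the shared base: 1.47 with all its reads and -0.00502 with its own counts alone.

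The other C-type gamma genes were higher with mir1301-3p too. PCDHGC4 had 5.34 and 7.07 CPM, against 0.811, 3.08 and 4.43 CPM as lowest, median and highest elsewhere, a log2 fold change of 1.33 ± 0.41 (SE, edgeR adjusted p = 0.038). PCDHGC5 had 5.14 and 6.35 CPM, against 0.442, 2.16 and 3.09 CPM, and 1.67 ± 0.44 (SE, edgeR adjusted p = 0.0236). On own counts the log2 fold changes were 0.48 and 1.12, neither past the threshold (edgeR adjusted p = 0.573 and 0.187).

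The beta genes give the reading without shared exons, although they resemble each other in sequence and no source used here says how reads that match several of them were counted. PCDHB11 had 26 and 31 counts in the mir1301-3p libraries and a lowest, median and highest count of 5, 11 and 20 in the other 10. Its mean level was 2.72 ± 0.07 CPM with mir1301-3p (SD, n = 2) and 0.884 ± 0.495 CPM in the other libraries (SD, n = 10), and the log2 fold change was 1.78 ± 0.41 (SE, edgeR adjusted p = 0.0159). Both libraries lay above all 10 others.

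PCDHB7 had 23 and 32 counts with mir1301-3p, against 4, 8 and 22 as lowest, median and highest elsewhere, and the largest beta log2 fold change that passed, 1.83 ± 0.47 (SE, edgeR adjusted p = 0.0218). In CPM its groups overlapped, since mir1180-3p replicate 2 reached 2.48 CPM and mir1301-3p replicate 1 lay at 2.36 CPM. PCDHB5, PCDHB12, PCDHB13, PCDHB16 and PCDHB9 made up the remaining beta calls, with log2 fold changes of 1.26 to 1.72. PCDHB6 moved least, with 25 and 19 counts against 8, 17 and 37 as lowest, median and highest, a log2 fold change of 0.50 that did not pass.

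Both mir1301-3p libraries lay above all 10 others at 34 of 52 members, 6 alpha, 7 beta and 21 gamma, where 13.6% of all genes did so. Leaving out mir1301-3p replicate 1 or replicate 2 left 0 members called; over all genes 114 and 142 calls were then left, against 2815 with both. Leaving out mir3613-5p replicate 2 gave 44 calls. Low level moved with this comparison across the whole table. Of genes averaging 1 to 5 CPM over the 12 libraries, where 47 of the tested members lie, 24.3% rose with mir1301-3p, and of those under 1 CPM, with the other 5 members, 30.7% rose. The share was 5.27% at 5 to 20 CPM and 2.42% at 20 to 100 CPM. Fibroblast and mesenchyme markers moved too: 7 of 14 rose, led by COL3A1, and the list summed to 125 and 214 CPM in the mir1301-3p libraries and 57.5 to 83.2 CPM in the other 10, with no marker of it at 0 in any of the 12. Their part in the result was not tested.

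**Figure D3:**
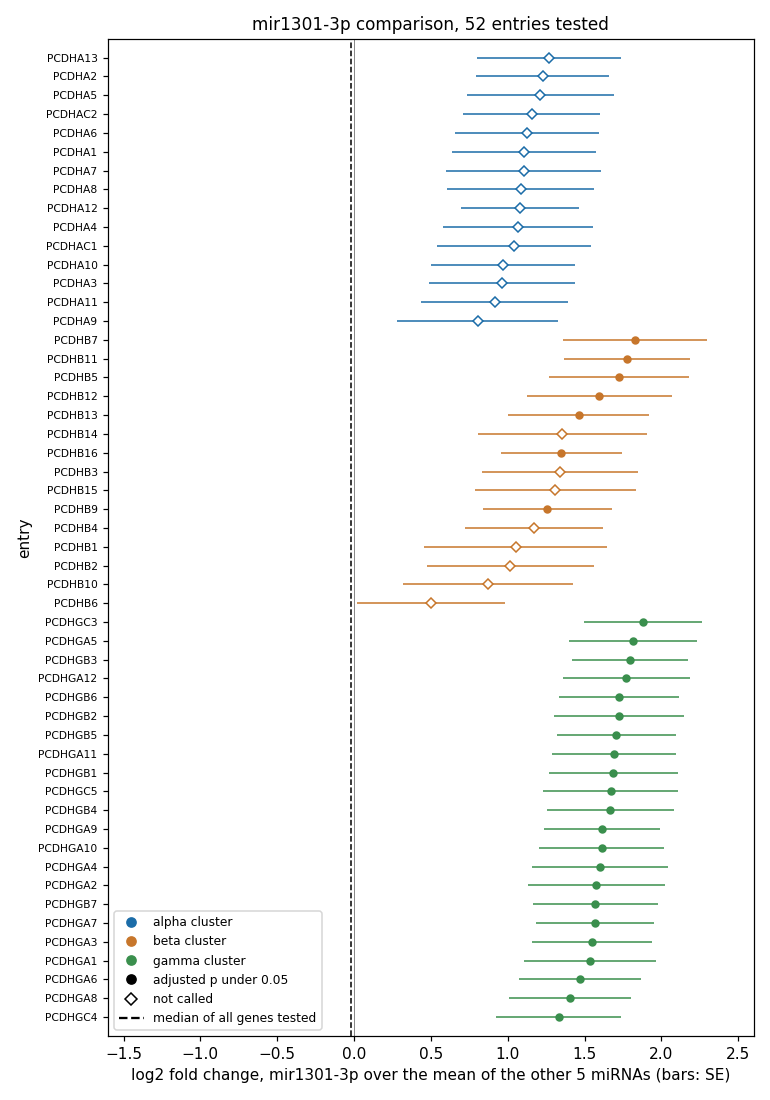
Log2 fold change of mir1301-3p over the mean of the other 5 miRNAs for the 52 members tested, with SE bars, filled circles for adjusted p under 0.05 and open diamonds for members not called. All points lie right of 0, the gamma entries are all filled, and the alpha entries are all open at 0.80 to 1.27.

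Relatives outside the clusters were called in part, where 11.5% of all genes rose and 24.3% to 30.7% of genes under 5 CPM. Of 22 non-clustered protocadherins and large cadherins, 7 rose with mir1301-3p, among them PCDH15, a hair cell tip link component, at 1.45 ± 0.42 (SE) and FAT3, at 1.18 ± 0.30 (SE). Of 37 classical and other cadherins 11 rose and 0 fell, led by CDH11, a mesenchymal cadherin. Of these genes, 10 of the 22 and 26 of the 37 averaged under 5 CPM, and 5 and 10 of those rose. CDH11 averaged 5.38 ± 0.52 CPM with mir1301-3p (SD, n = 2) and 1.23 ± 0.30 CPM in the other libraries (SD, n = 10), a log2 fold change of 2.16 ± 0.36 (SE, edgeR adjusted p = 0.003). CDH6 and CDH16, kidney cadherins, rose by 2.03 ± 0.40 and 2.13 ± 0.41 (SE) on the log2 scale.

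Of 22 regulators of promoter choice and silencing at the clusters, 1 rose and 1 fell with mir1301-3p, where 11.5% of all genes rose and 4.39% fell. LRIF1, a partner of the chromatin protein SMCHD1, averaged 128 ± 55 CPM with mir1301-3p (SD, n = 2) and 41.4 ± 17.9 CPM elsewhere (SD, n = 10), a log2 fold change of 1.65 ± 0.36 (SE, edgeR adjusted p = 0.0129). DNMT1, the maintenance DNA methyltransferase, averaged 24.4 ± 4.5 CPM with mir1301-3p (SD, n = 2) and 65.9 ± 18.4 CPM elsewhere (SD, n = 10), a log2 fold change of -1.41 ± 0.34 (SE, edgeR adjusted p = 0.0185). Among 15 neighbouring genes of the region, ARAP3 and PCDH1 rose and HARS, the histidyl-tRNA synthetase gene, fell by 1.42 on the log2 scale.

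The variation between miRNAs was also tested without choosing a miRNA. Tested for any difference among the 6 miRNAs, 3 of 52 members were called, PCDHB14, PCDHGC3 and PCDHGB3, where 5.72% of all genes were. At an unadjusted p under 0.05 stood all 22 gamma entries, 7 beta genes and 0 alpha entries, against 29.25% of all genes. DESeq2 called 25 members in this test and upper-quartile scaling 21, and own counts left 1. Replicates of the alpha cluster lay farthest apart in mir3613-5p, where its median entry was at 9 counts in replicate 1 and 46 in replicate 2.

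At the median alpha entry, mir1301-3p had the highest mean level, 4.42 ± 0.58 CPM (SD, n = 2 here and below). The others were mir1180-3p at 2.75 ± 1.06 CPM, mir3613-5p at 2.20 ± 2.23 CPM, mir1260a-5p at 2.05 ± 0.01 CPM, mir550-3p at 1.86 ± 0.02 CPM and mir1271-5p at 1.57 ± 0.09 CPM. The mir3613-5p libraries span nearly the whole of that order. The 16 beta genes summed to 34.2 ± 3.8 CPM with mir1301-3p, 21.4 ± 8.2 CPM with mir1180-3p and 17.3 ± 3.7 CPM with mir3613-5p. The sums were 14.6 ± 3.0 CPM with mir550-3p, 14.4 ± 2.7 CPM with mir1260a-5p and 13 ± 3.8 CPM with mir1271-5p. Within 1 SD these last 3 overlapped each other and the sums with mir1180-3p and mir3613-5p. A single gene, PCDHB14, gave 11.2 of the 19.9 CPM in mir3613-5p replicate 1, so the place of mir3613-5p in this order rests on it.

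PCDHB14 was the member that stood out with mir3613-5p. It had 163 counts in replicate 1 and 22 in replicate 2, against 2, 7.5 and 23 as lowest, median and highest count in the other 10 libraries. Replicate 1 lay far above every other library, and replicate 2 lay inside the range of the others, close to the mir1301-3p libraries with 23 and 21. In CPM, replicate 1 was at 11.2 (95% Poisson interval 9.57 to 13.1, counting error only) and replicate 2 at 1.81 (1.13 to 2.74).

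The log2 fold change of PCDHB14 was 3.42 ± 0.47 (SE, edgeR adjusted p = 0.0039), the mean 6.52 ± 6.66 CPM with mir3613-5p (SD, n = 2) and 0.836 ± 0.716 CPM in the other libraries (SD, n = 10). It was the 1 member of 52 that rose in this comparison, where 0.0906% of all genes did. Without replicate 1 the log2 fold change was 1.51 with an adjusted p of 0.683 (edgeR), so the call rests on that library; without replicate 2 it was 4.19. Of the 14 other beta genes tested, 12 had a log2 fold change below 0, with a median of -0.87. In the same library PCDHA12 had 41 counts where the lowest alpha entry had 7 and the median 9, 34 own counts, and in replicate 2 it had 50 where the lowest had 41. Its log2 fold change was 0.71 ± 0.39 (SE) and was not called (edgeR adjusted p = 0.41).

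**Figure D4:**
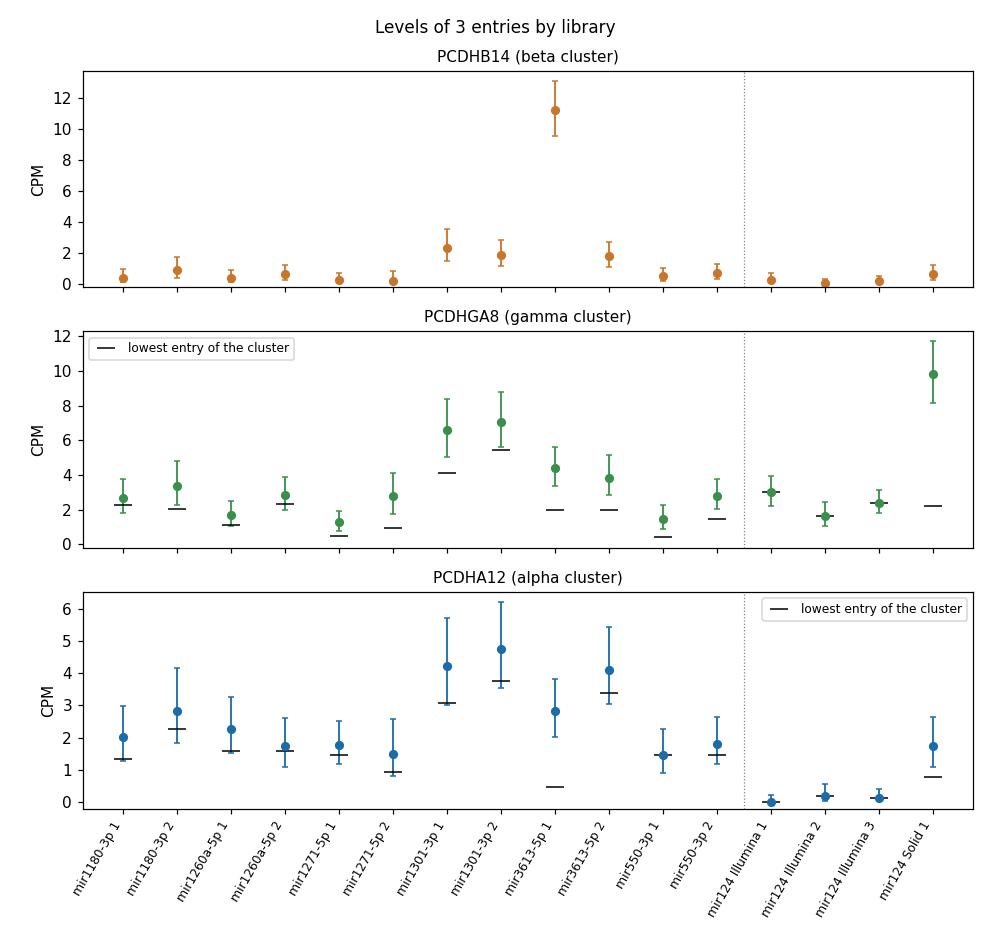
Levels of PCDHB14, PCDHGA8 and PCDHA12 in CPM in each of the 16 libraries, with 95% Poisson intervals that cover counting error only and, for the alpha and gamma entries, a black dash at the lowest entry of the cluster. PCDHB14 reaches 11.2 CPM in mir3613-5p replicate 1, and PCDHGA8 reaches 9.83 CPM in the mir124 Solid library, far above the dash at 2.22 CPM.

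With mir1271-5p the members lay low without passing the test. None of 52 was called, where 0.606% of all genes were, and DESeq2 called 0 too. An unadjusted p under 0.05 was found for 20, all lower and 18 of them gamma, against 3.02% of all genes lower at that p. The gamma median of the log2 fold changes was -1.34, with all 22 below 0, but these entries share reads. Relatives outside the clusters leaned the same way, against a median of 0.05 over all genes. Below 0 were 20 of 22 non-clustered protocadherins and large cadherins, with a median of -0.36. So were 25 of 37 classical and other cadherins, with a median of -0.42. The median gamma entry had 12 and 11.5 counts with mir1271-5p, or 1.03 ± 0.43 CPM (SD, n = 2), the lowest of the 6 miRNAs. Here and for the other miRNAs, the reference includes mir1301-3p, where the clusters were highest, which lowers these fold changes. With mir1301-3p left out of the reference, edgeR called 0 members with mir1271-5p, mir1180-3p or mir1260a-5p, and 1 with mir3613-5p.

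With mir550-3p the gamma median was -0.96 and again all 22 were below 0; 0 members were called by edgeR, where 1.51% of all genes were, 9 gamma entries were lower at an unadjusted p under 0.05, against 7.396% of all genes, and DESeq2 called 1, lower. The median gamma level was 1.31 ± 0.71 CPM (SD, n = 2), with 11 counts in replicate 1 and 27 in replicate 2. It overlapped that of mir1271-5p. In ascending order followed mir1260a-5p at 2.11 ± 0.79 CPM, mir3613-5p at 2.39 ± 0.22 CPM, mir1180-3p at 3.05 ± 0.24 CPM and mir1301-3p at 5.67 ± 0.90 CPM (SD, n = 2 each). Within 1 SD, mir1260a-5p overlapped mir1271-5p, mir550-3p, mir3613-5p and mir1180-3p, mir3613-5p and mir1180-3p did not overlap, and mir1301-3p lay above all others.

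With mir1180-3p 0 of 52 members were called, where 2.07% of all genes were, 2 had an unadjusted p under 0.05, against 13.73% of all genes, and own counts gave 2 calls. The smallest p of a gamma entry was that of PCDHGA2, with 30 and 63 counts against 7, 26 and 69 as lowest, median and highest elsewhere, a log2 fold change of 1.18 ± 0.46 (SE) that was not called (edgeR adjusted p = 0.256). PCDHGA2 was among the 2 calls on own counts, with a log2 fold change of 3.38 (edgeR adjusted p = 0.0123). Its own counts were 3 in replicate 1 and 45 in replicate 2. With mir1260a-5p 0 members were called, where 0.215% of all genes were, and 0 had an unadjusted p under 0.05; the median log2 fold change was -0.18 over members and 0.02 over all genes. DESeq2 called 0 members in either comparison.

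**Figure D5:**
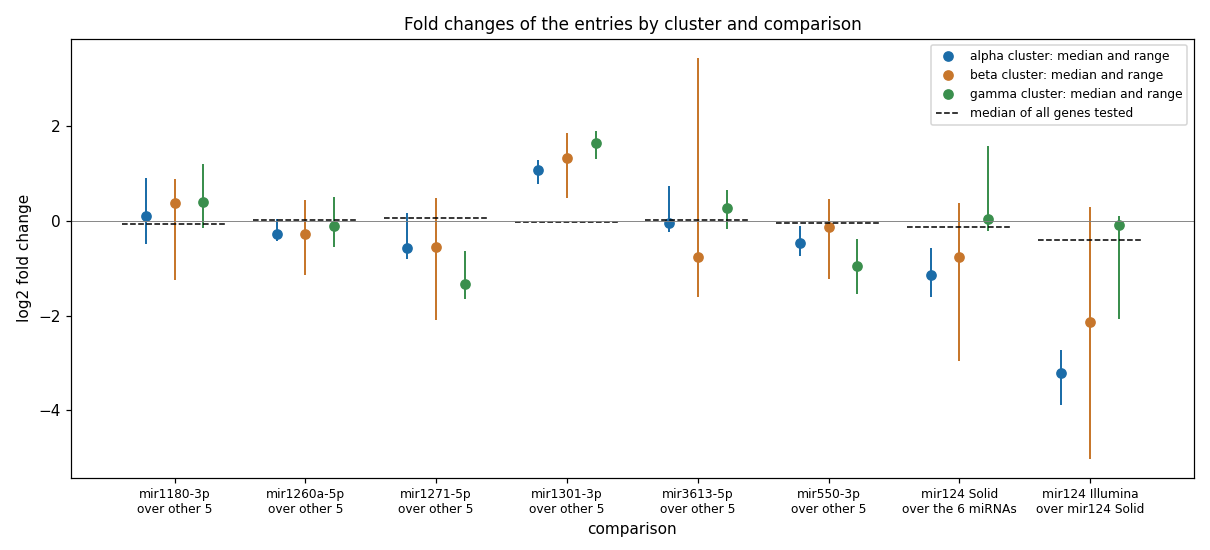
Median log2 fold change (points) and range (lines) of the alpha, beta and gamma entries tested in 8 comparisons, with dashed lines at the median of all genes tested; the 3 beta genes at 0 in all Illumina libraries are placed at their bound. The 3 clusters lie together above the dashed line for mir1301-3p, and the alpha and beta clusters lie apart from the gamma cluster for mir124 Illumina over Solid.

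Genes that act with the protocadherins were called for other miRNAs. NCKAP1, a subunit of the WAVE complex that binds the tails of several protocadherins, averaged 4027 ± 193 CPM with mir1271-5p (SD, n = 2) and 1284 ± 318 CPM in the other libraries (SD, n = 10), a log2 fold change of 1.74 ± 0.22 (SE, edgeR adjusted p = 0.00059). PDCD10 rose by 1.31 ± 0.24 (SE) with mir1260a-5p, at 422 ± 87 CPM against 172 ± 42 CPM elsewhere (SD, n = 2 and n = 10, edgeR adjusted p = 0.018). These were the only calls among 26 processing and signalling partners in those 2 comparisons, where 0.606% and 0.215% of all genes were called. With mir1301-3p, where 4.39% of all genes fell, 3 of the 26 fell, NCKAP1, BRK1 of the WAVE complex and PSENEN of the gamma-secretase that cleaves protocadherins; for NCKAP1 the other 5 miRNAs include mir1271-5p. PCDH8, a non-clustered protocadherin, rose with mir550-3p by 1.57 ± 0.39 (SE, edgeR adjusted p = 0.0495). It was the 1 call among the 22 of its list, where 1.51% of all genes were called. RELL2, a neighbour of the clusters, rose with mir1180-3p by 1.49 ± 0.37 (SE, edgeR adjusted p = 0.0424). It was the 1 call among 15 neighbours, where 2.07% of all genes were called.

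The single Solid library of mir124-3p was compared with the 12 libraries of the 6 miRNAs, and its spread was assumed to be that of the others. None of 53 members was called, where 8.89% of all 18135 genes were, and 2 had an unadjusted p under 0.05, against 24.13% of all genes. The median log2 fold change was -1.15 in the alpha, -0.75 in the beta and 0.05 in the gamma cluster, and -0.12 over all genes. PCDHGA8 differed from the rest of its cluster: it had 124 counts where the lowest gamma entry had 28 and the median 31.5. In the 12 other libraries it had 20, 34 and 79 counts as lowest, median and highest.

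The level of PCDHGA8 was 9.83 CPM in the Solid library (95% Poisson interval 8.18 to 11.7, counting error only), against 1.27, 2.82 and 7.07 CPM as lowest, median and highest in the 12 libraries. Its log2 fold change was 1.57 ± 0.49 (SE), with an adjusted p of 0.0557 by edgeR, 0.0226 by DESeq2 and 0.00333 by edgeR on own counts, where the log2 fold change was 2.55. With edgeR it was 0.0414 under DESeq2-type size factors, 0.123 under upper-quartile scaling and 0.0547 with no filter. Without each of the 12 libraries in turn it was 0.0301 to 0.0848, under 0.05 in 3 of the 12, without replicate 2 of mir1260a-5p, mir1271-5p or mir3613-5p. With 1 library there is no replicate of this value. Of 26 processing and signalling partners, 5 were called higher in this 1 library, among them NCSTN and PSEN2 of the gamma-secretase and FYN, a kinase that binds alpha protocadherins, and 3 lower, NCKAP1, PDCD10 and SNX3, where 7.31% of all genes were called higher and 1.58% lower.

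Between the mir124-3p libraries, the Illumina ones were set against the Solid one, a comparison in which platform, library and culture cannot be told apart. Of 53 members 24 were lower and 0 higher, 14 alpha, 9 beta and 1 gamma, where 19.5% of all 18271 genes were lower. The median log2 fold change was -3.22 in the alpha and -0.08 in the gamma cluster, against -0.39 over all genes. In the beta cluster it was -3.03, and -2.14 with the genes at 0 in all Illumina libraries placed at their bound. Relatives outside the clusters were lower too, with no gene placed at a bound. The median was -1.76 over 37 classical and other cadherins and -1.54 over 22 non-clustered protocadherins and large cadherins. Leaving out Illumina replicate 1 left 12 calls, and the 4 mir124-3p libraries alone 5 of 42.

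The alpha cluster had 0, 3 and 3 counts in the Illumina libraries, against 10 to 22 over its entries in the Solid library. PCDHA12 had the smallest alpha p: 0, 0.192 and 0.138 CPM in the Illumina libraries (95% Poisson upper bounds 0.221, 0.560 and 0.404, counting error only) against 1.74 CPM in the Solid library, a log2 fold change of -3.87 ± 0.76 (SE, edgeR adjusted p = 0.000848). PCDHB6 had 0 counts in all 3 Illumina libraries, with limits of 0.180, 0.192 and 0.138 CPM at 3 counts a library, against 28 counts or 2.22 CPM in the Solid library. It was at least 13.1-fold lower (edgeR adjusted p = 4.91e-05). PCDHB1 was at 0 in all 3 against 9 counts, at least 4.20-fold lower. Both bounds rest on the limit of 3 counts and would be smaller with the 95% Poisson upper bound of 3.69 counts. They also take the Solid count as exact and leave out its counting error. For PCDHB6 the 95% Poisson interval of the Solid level was 1.48 to 3.21 CPM.

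The gamma cluster went another way. Its shared count of 50, 26 and 52 corresponds to 3.00, 1.66 and 2.40 CPM in the Illumina libraries, against 2.22 to 9.83 CPM over entries and 2.50 CPM at the median entry in the Solid library. The Illumina mean was 2.35 ± 0.67 CPM (SD, n = 3), so the Solid median lay within the spread of the Illumina libraries. PCDHGA8, with 124 counts there, was the 1 gamma entry called, at -2.06 ± 0.56 (SE, edgeR adjusted p = 0.0106). Whether its Solid reads fell on the first exon or elsewhere could not be read from counts per entry.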

How the data were processed

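Libraries of RISC-trap RNA from HEK 293 cells were analysed from 1 table of raw counts per RefSeq mRNA, deposited by the authors without normalisation. The submitters' processing notes name TopHat2 and hg19; no source used here gives the counting tool, its strand setting or its treatment of reads shared by transcripts. Counts were fitted in R 4.3.3 with edgeR 4.0.16 (filterByExpr, trimmed mean of M values, group means, two-sided robust quasi-likelihood tests) on all genes: 12 libraries for the 6 miRNAs, 13 with the Solid library and 16 for Illumina against Solid. Of the members, 52, 53 and 53 passed the filter; PCDHB8, with 2 to 9 counts in the 12 libraries, did not pass the first. The common biological coefficient of variation was 0.350, 0.350 and 0.317. Adjusted p-values are Benjamini-Hochberg over all genes. The SE of a log2 fold change was derived from its test, as the absolute log2 fold change divided by the square root of the quasi-likelihood F statistic. In simulated data the mir1301-3p fit called 44 of 50 genes raised 4-fold and 9 of 50 raised 2-fold among 16495. The Solid fit called 36 of 50 raised 4-fold and 5 of 50 lowered to 0.25-fold among 17050. The fit for any difference called 36 of 50 raised 4-fold and 8 of 50 lowered to 0.25-fold among 16489. The fit of Illumina against Solid called 7 of 50 raised 4-fold and 13 of 50 lowered to 0.25-fold among 17300. Whether such recovery holds at the low counts of the members, or for alpha and gamma entries that share reads, was not tested. Alternatives were DESeq2 1.42.0, other scalings, no filter, a replicate block, leaving out each replicate and own counts.

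Named members are those called in any comparison, those with the highest or lowest mean level of a cluster, the C-type members, and the smallest p of each cluster and comparison; other entries are named for their own counts, chosen after their values were seen. Members, gene lists and this rule were chosen with earlier results of these data known. Replicate numbers come from the titles, and the main fits did not pair libraries by them. Deviations of same-numbered libraries correlated at -0.137 to 0.348 over 15 pairs of groups, over 0.1 in 6 of them and under -0.1 in 2. These values do not settle whether same-numbered libraries belong together. A replicate block gave 13 members called for any difference and 34 for mir1301-3p, against 3 and 29 in the main fits.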

Additional observations from a re-analysis of the deposited data

How the results depend on the processing

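Counts of members called varied with the setting as follows. For any difference among the 6 miRNAs, where 3 were called, upper-quartile scaling gave 21, DESeq2 25, a replicate block 13 and own counts 1, and leaving out 1 library gave 1 to 8: 1 without either replicate of mir1180-3p or mir1301-3p or without mir550-3p replicate 1, 6 without mir1260a-5p replicate 2 and 8 without mir1271-5p replicate 2. For mir1301-3p, with 29, own counts gave 12 and leaving out 1 library 0 to 44. For mir3613-5p, with 1, leaving out 1 library gave 0 to 1. For mir1180-3p, with 0, own counts gave 2, and for mir550-3p, with 0, DESeq2 gave 1. For the mir124 Solid library, with 0, DESeq2-type size factors, DESeq2 and own counts gave 1 each, and leaving out 1 library 0 to 1. For mir124 Illumina against Solid, with 24, the 4 mir124 libraries alone gave 5 and leaving out 1 library 12 to 19. PCDHGA6 in the mir1301-3p comparison changed sign on own counts, to -0.00502. The cause of these shifts was not tested. Leaving out a library or fitting 4 libraries also leaves fewer degrees of freedom, but leaving out a library raised some of these counts and lowered others. The counts for mir1260a-5p and mir1271-5p were 0 under every setting run. Low counts limit these results: a member had 2 to 163 counts in the 12 libraries, and separate isoforms of the alpha and gamma clusters are read only from the own counts.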
